A study of Bos taurus with 15 samples.

Results

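Antioxidant, glutathione and NRF2 genes were followed through day-7 bovine blastocysts, the embryo stage at which a fluid-filled cavity and the first cell lineages have formed. The set was a fixed list of 36 genes taken by symbol from the deposited count table, and 32 of them were among its 17259 genes. SOD1, SOD2, GLRX and SRXN1 were not analysed here. The filter on low counts kept 31 of the 32. ME1, the cytosolic malic enzyme, did not pass it.

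The 15 libraries fall into 3 groups of 5 and came from Bos taurus blastocysts. The design text gives 5 blastocysts a group, but no label says whether a library held 1 blastocyst or a pool, so each SD is over libraries. The in vivo group was collected from animals at day 7. The manual and automatic groups were stripped of their surrounding cumulus cells by hand or by an automated procedure, as zygotes by the treatment protocol (the series title says oocytes), and were then grown in vitro in SOF (a defined embryo culture medium) to day 7. Both in vitro groups therefore share denudation and culture, and the design holds no in vitro group that kept its cumulus cells. No breed, sire or age of the donors is given in the sources used here, and no group carried an added oxidant or antioxidant by its labels. Whether libraries within 1 group stem from separate collections or cultures is not labelled. The p-values therefore rest on library-to-library spread alone, part or all of which may be technical.

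Embryos handle reactive oxygen with a few linked systems. Under oxidative or electrophilic stress the transcription factor NRF2 (encoded by NFE2L2) escapes KEAP1, the adaptor that otherwise marks it for degradation, and drives genes for glutathione synthesis, thioredoxin recycling, NADPH supply and iron storage. Glutathione peroxidases and peroxiredoxins remove peroxides with electrons from glutathione or thioredoxin, both recharged with NADPH, while ferritin holds iron in a form that does not feed radical chemistry. In cattle embryos, low-oxygen culture and the glutathione content of the oocyte are long-standing concerns of in vitro production.

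Values are library-scaled counts (CPM, each count as a share of the library times 1e6) on library sizes scaled by the trimmed mean of M values (TMM). They are not divided by transcript length, so levels are compared between libraries for 1 gene and not between genes. Library totals ran from 17.96 to 41.97 x 1e6 estimated counts. In 5 libraries (in vivo 2, in vivo 4, manual 2, automatic 2 and automatic 4) only 6977 to 8547 genes had at least 10 counts, against 9900 to 12611 in the other 10. In these low-detection libraries mitochondrial genes took 8.18 to 14.4% of counts, against 3.26 to 9.99%, and 22 to 26 of the 32 antioxidant genes had at least 10 counts, against 28 to 31. Trophectoderm markers, all 8 of 8 present in the table, summed to 12771 to 31505 CPM in vivo, 8146 to 34368 in manual and 4394 to 13964 in automatic libraries. All 4 epiblast markers were present as well and summed to 433 to 931, 185 to 618 and 164 to 722 CPM in the same order. The 4 hypoblast markers summed to 182 to 483, 159 to 340 and 224 to 679 CPM, with medians of 292, 294 and 300 CPM. The RNA came from whole blastocysts, so fewer cells of a type and less RNA per cell cannot be told apart.

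**Figure D1:**
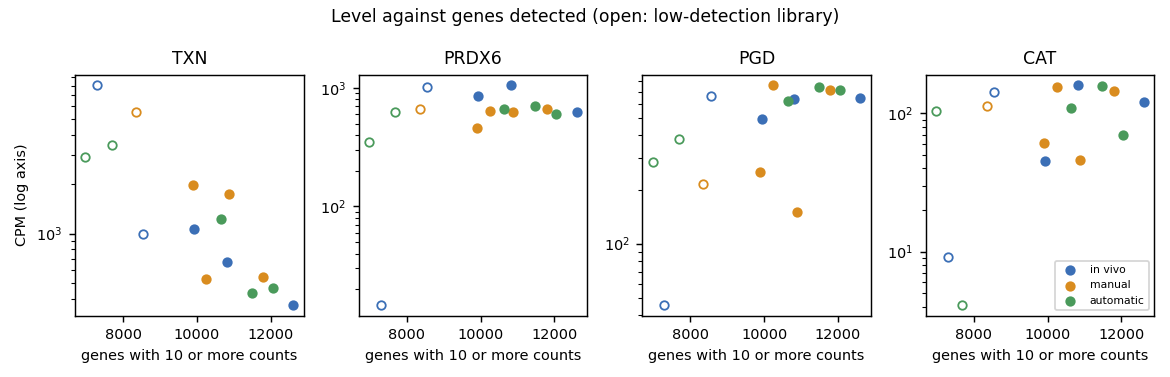
CPM of TXN, PRDX6, PGD and CAT (vertical, log axis) against the number of genes with at least 10 counts (horizontal), 1 point per library, coloured by group and open for the 5 low-detection libraries. Open points of TXN run from 988 to 8034 CPM and filled ones from 368 to 1975 CPM, and in vivo 2 is the lowest point for PRDX6 (14.8 CPM) and PGD (45.8 CPM).

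No antioxidant gene passed edgeR's test in any comparison. The members that lay farthest from the in vivo level, relative to their error, were a peroxidase (GPX1), the ferritin light chain (FTL) and the peroxiredoxins PRDX2 and PRDX5, lower in vitro, and the KEAP1-binding SQSTM1 and the peroxiredoxin PRDX4, higher in vitro. Between in vitro (automatic and manual together) and in vivo blastocysts, 0 of 31 genes had an adjusted p under 0.05 by edgeR's quasi-likelihood test with Benjamini-Hochberg adjustment over 11578 genes, where 0.0173% of all genes did (2 genes). The smallest adjusted p among the antioxidant genes was 0.275. At an unadjusted p under 0.05 there were 9 of 31 (29.0%), where the share over all genes was 6.13%. Of these, 4 lay higher in vitro (background 2.46%): SQSTM1, GSR, PRDX4 and NFE2L2. The 5 that lay lower (background 3.67%) were GPX1, FTL, PRDX2, PRDX5 and GSTP1. The members were chosen with earlier results of these data known. Their intervals were also narrower, with 19 of 31 within a 4-fold change in either direction, against 26.8% of all genes. The shares of members and of all genes are therefore not like for like. Without the 5 low-detection libraries 6 of 31 genes (19.4%) had an unadjusted p under 0.05, 2 higher and 4 lower, where the share over all genes was 8.33%. NFE2L2, GSTP1 and GSR no longer reached it (unadjusted p = 0.329, 0.200 and 0.0926 by edgeR). With all 15 libraries, the log2 difference was above 0 for 13 and below 0 for 18 genes, with a median of -0.14, beside -0.036 over all genes tested. No antioxidant gene separated all 10 in vitro from all 5 in vivo libraries, where 0.199% of all genes did so upward and 0.276% downward. Between automatic and manual libraries 0 of 31 genes had an adjusted p under 0.05 (background 0%) and 0 of 31 an unadjusted one (background 1.48%).

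**Figure D2:**
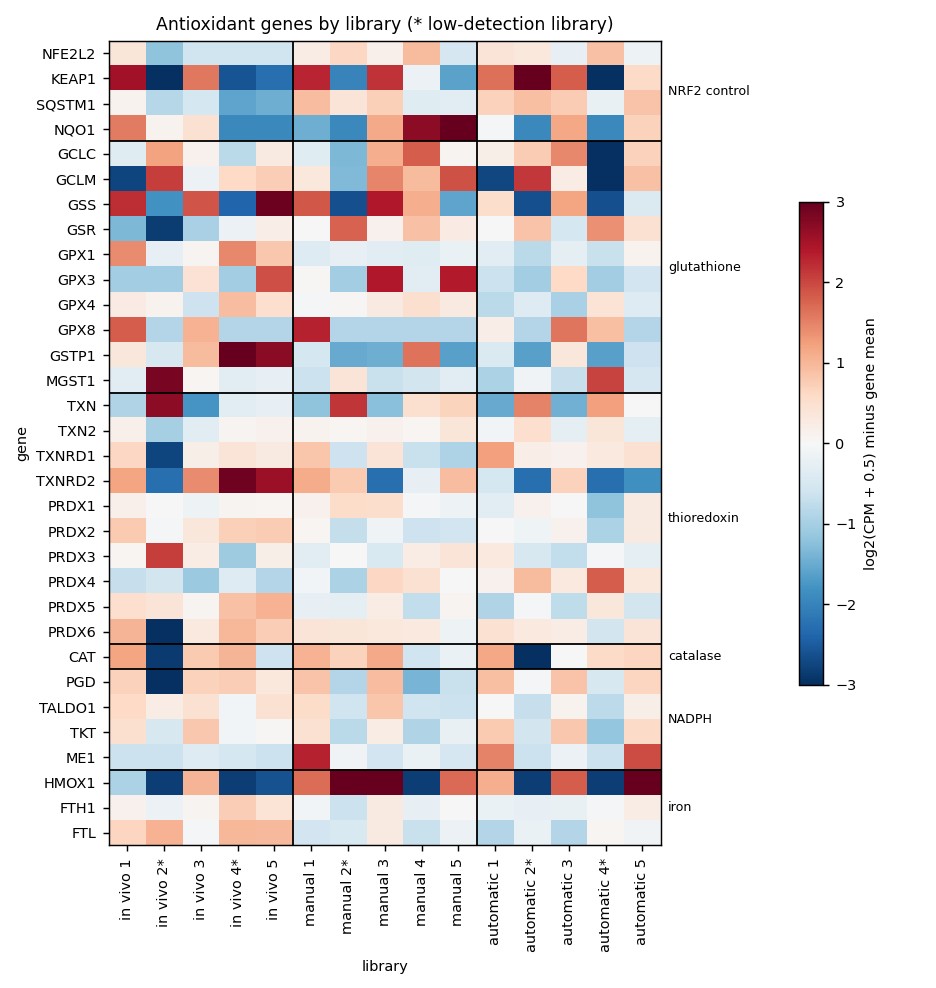
Antioxidant genes in the 15 libraries. Rows are genes ordered by branch, columns are libraries ordered by group, and colour gives log2(CPM + 0.5) minus the gene's mean over all libraries (red above, blue below), clipped at 3 in both directions. Stars mark the low-detection libraries. GPX1, FTL, PRDX2 and PRDX5 are mostly red in the in vivo columns, and in vivo 2 is at the blue end for PRDX6 (14.8 CPM), CAT (9.11 CPM) and PGD (45.8 CPM).

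In the NRF2 control branch, all 4 tested genes lay higher in vitro, with a median log2 difference of 0.84, and none passed the test. Without the low-detection libraries 3 of 4 lay higher, and 3 of 4 did so in automatic against in vivo libraries. NFE2L2, which encodes NRF2 itself, measured 165, 54.7, 85.1, 84.9 and 84.3 CPM in the in vivo libraries 1 to 5. It measured 149.8, 196, 143, 246 and 89.97 CPM in manual and 166, 161, 108, 236 and 116 CPM in automatic libraries. In vivo 1 lay as high as many cultured libraries, and 4 of the 10 in vitro libraries were above it, while the other 4 in vivo libraries were below every in vitro one. Group means were 94.7 ± 41.2 CPM in vivo, 165 ± 58.8 manual and 157 ± 50.7 automatic (SD, n = 5 each). The log2 difference in vitro was 0.77 ± 0.36 (SE; 95% interval 0.0065 to 1.53; adjusted p = 0.805 by edgeR), and it was 0.36 without the 5 low-detection libraries.

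SQSTM1 (p62) is a cargo receptor of autophagy that binds KEAP1 and so releases NRF2, and is itself an NRF2 target. In vivo libraries 1 to 5 held 318, 163, 205, 97.3 and 106 CPM. Manual libraries held 561, 384, 480.2, 229.6 and 237 CPM, and automatic libraries 473, 554, 500.4, 251 and 531 CPM. In vitro, 7 of 10 libraries were above the highest in vivo value, and manual 4, manual 5 and automatic 4 lay inside the in vivo range. The log2 difference of 1.23 ± 0.35 (SE; 95% interval 0.50 to 1.97) is 2.35-fold, with an unadjusted p of 0.00242 and an adjusted p of 0.5 by edgeR. Without the low-detection libraries it was 1.05.

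KEAP1 was uneven inside every group. Its values were 74.4, 0.918, 38.8, 1.69 and 2.24 CPM in vivo, 63.3, 2.77, 58.4, 11.1 and 3.79 CPM in manual, and 40.8, 119, 45.98, 0.332 and 19.03 CPM in automatic libraries. The groups overlapped over nearly their whole range, and the log2 difference in vitro was 0.59 ± 1.15 (SE). It was -0.15 without the low-detection libraries. NQO1, the quinone reductase often used as a readout of NRF2 activity, stayed between 0 and 19.5 CPM in all 15 libraries, with means of 1.74 ± 2.08 in vivo, 7.002 ± 8.44 manual and 1.53 ± 1.64 automatic (SD, n = 5 each). The log2 ratio of NFE2L2 to KEAP1 within a library differed by -0.39 between in vitro and in vivo groups (exact two-sided permutation p = 0.778, adjusted p = 0.986 over the 8 ratio tests).

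In the glutathione branch 3 of 10 tested genes lay higher and 7 lower in vitro, with a median of -0.26. None passed the test, and GPX1, GSR and GSTP1 had an unadjusted p under 0.05. GPX1 is the main cytosolic glutathione peroxidase, a selenoprotein that reduces hydrogen peroxide. In vivo libraries 1 to 5 measured 1199, 379, 471, 1209.8 and 785 CPM. Manual libraries measured 339.8, 378, 359, 344 and 387 CPM, and automatic libraries 349.5, 253, 366, 282 and 479 CPM. Cultured libraries lay between 253 and 479 CPM, 8 of 10 of them below the lowest in vivo value, and the in vivo libraries spread more widely. Group means were 809 ± 392 CPM in vivo, 362 ± 20.7 manual and 346 ± 87.7 automatic (SD, n = 5 each). The log2 difference was -1.19 ± 0.28 (SE; 95% interval -1.78 to -0.61), or 2.29-fold lower in vitro, with an unadjusted p of 0.000425 and an adjusted p of 0.275 by edgeR. Without the low-detection libraries it was -1.12.

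DESeq2 called 2 of the 31 genes on the same counts (background 0.751%), GPX1 (adjusted p = 0.0210) and FTL. Limma-voom with library quality weights called 4 (background 0.924%): GPX1 (adjusted p = 0.0323), FTL, PRDX2 and PRDX5. With edgeR the adjusted p of GPX1 ran from 0.137 to 0.818 over the 15 fits that each left out 1 library.

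GSR, glutathione reductase, returns oxidised glutathione to its reduced form with NADPH. It measured 24.4, 8.34, 31.8, 55.8 and 72.5 CPM in vivo, 62.5, 214, 68.9, 116 and 74.9 CPM in manual, and 62.5, 115, 43.2, 164 and 86.3 CPM in automatic libraries. Of the 10 in vitro libraries, 6 were above the highest in vivo value. The log2 difference was 1.38 ± 0.54 (SE; 95% interval 0.24 to 2.52; unadjusted p = 0.0204, adjusted p = 0.700 by edgeR). The 3 highest values, 214, 164 and 116 CPM, include 2 low-detection libraries, and without the 5 low-detection libraries the log2 difference was 0.75.

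GPX4, which reduces lipid peroxides in membranes and so guards against ferroptosis, held 449, 405, 246, 718 and 534 CPM in vivo. Manual libraries held 365, 386, 454, 527 and 457 CPM and automatic libraries 215, 287, 192, 499.6 and 287 CPM. The groups overlapped, with a log2 difference in vitro of -0.39 ± 0.29 (SE; 95% interval -0.99 to 0.22). It was -0.15 without in vivo 4. GSTP1, a glutathione transferase, was scarce: 1.45, 0.612, 2.47, 23.97 and 9.57 CPM in vivo, 0.584, 0.0469, 0.0632, 4.31 and 0 CPM in manual, and 0.656, 0, 1.45, 0 and 0.511 CPM in automatic libraries. In vivo 4 and in vivo 5 were highest. Its log2 difference of -3.38 ± 1.5 (SE; unadjusted p = 0.0362, adjusted p = 0.783 by edgeR) was -2.28 without in vivo 4 and -2.10 without the low-detection libraries.

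Synthesis of glutathione starts at glutamate-cysteine ligase, made of a catalytic subunit (GCLC) and a modifier subunit (GCLM). GCLC measured 10.01, 30.6, 14.4, 7.23 and 15.8 CPM in vivo, 10.04, 4.78, 28.1, 46.8 and 13.7 CPM in manual, and 14.7, 22.5, 36.3, 0 and 21.3 CPM in automatic libraries. No group stood apart, and its log2 difference in vitro was 0.34 ± 1.0 (SE). GCLM means were 15.4 ± 14.5 in vivo, 18.4 ± 12.2 manual and 13.7 ± 16.4 CPM automatic (SD, n = 5 each). The ratio of GCLC to GCLM did not separate in vitro from in vivo libraries (log2 difference 0.010, exact permutation p = 0.986) nor automatic from manual ones (0.82, exact permutation p = 0.381). GSS, which completes glutathione, averaged 9.7 ± 9.79 CPM in vivo, 6.64 ± 6.78 manual and 2.45 ± 2.79 automatic (SD, n = 5 each).

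Of the other members of this branch, MGST1, a microsomal glutathione transferase, had 1 high library in each of 2 groups. In vivo 2 reached 302 CPM and automatic 4 reached 169 CPM, both low-detection libraries, and the remaining 13 lay between 21.1 and 54.1 CPM. GPX3, the secreted plasma form, and GPX8, of the endoplasmic reticulum, did not exceed 4.93 and 4.09 CPM in any library.

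**Figure D3:**
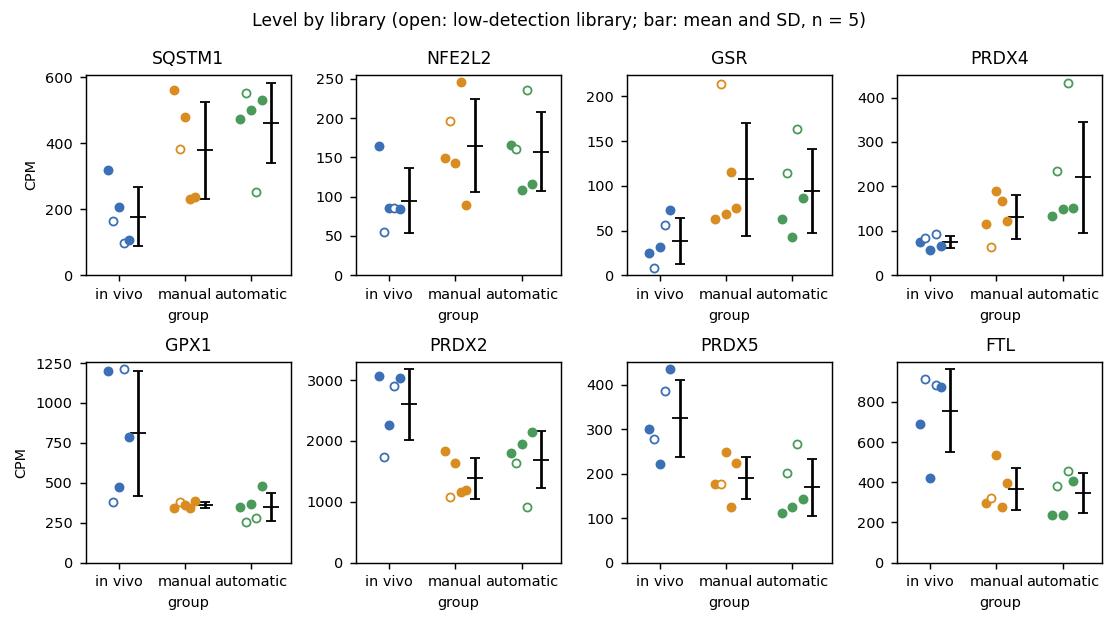
Levels of selected antioxidant genes. Each panel shows CPM (linear axis from 0) by group, with 1 point per library, open for low-detection libraries, and the group mean with its SD (n = 5 each) as a bar. In vitro points of GPX1, FTL, PRDX2 and PRDX5 sit mostly below the in vivo points, and those of SQSTM1, PRDX4 and GSR mostly above.

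In the thioredoxin branch 4 of 10 tested genes lay higher and 6 lower in vitro, with a median of -0.25. Its peroxiredoxins went both ways. PRDX2, a cytosolic peroxiredoxin, measured 3076, 1734, 2264, 2910.2 and 3029 CPM in vivo. It measured 1837, 1085, 1645, 1156 and 1199 CPM in manual and 1795, 1637, 1956, 921 and 2152 CPM in automatic libraries. In vivo 2 was the lowest of its group, and 6 of the 10 in vitro libraries lay below it. The log2 difference was -0.77 ± 0.23 (SE; 95% interval -1.25 to -0.28), or 1.70-fold lower, with an unadjusted p of 0.00383 and an adjusted p of 0.547 by edgeR.

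PRDX5, which works in mitochondria, peroxisomes and cytosol, measured 299, 277, 222, 386 and 434 CPM in vivo, 177, 176, 248, 126 and 223 CPM in manual, and 112, 202, 124, 267 and 143 CPM in automatic libraries. Of the in vitro libraries 7 of 10 were below the lowest in vivo one. The log2 difference was -0.85 ± 0.29 (SE; 95% interval -1.46 to -0.24; unadjusted p = 0.00878, adjusted p = 0.553 by edgeR), and it was -1.03 without the low-detection libraries. With limma-voom and library quality weights PRDX2 and PRDX5 had adjusted p-values of 0.0204 and 0.0401.

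PRDX4, the peroxiredoxin of the endoplasmic reticulum, where it also passes oxidising power to folding proteins, went the other way. In vivo libraries 1 to 5 held 75.7, 83.2, 56.4, 93.4 and 66.4 CPM. Manual libraries held 115, 62.8, 189, 168 and 123 CPM, and automatic libraries 133, 235, 150.0, 433 and 152 CPM. Manual 2, a low-detection library, was the only in vitro library inside the in vivo range, and the in vitro libraries lay higher by 1.18 ± 0.38 (SE; 95% interval 0.38 to 1.98), or 2.27-fold higher, with an unadjusted p of 0.00596 and an adjusted p of 0.553 by edgeR. It was 1.15 without the low-detection libraries.

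PRDX1, another cytosolic peroxiredoxin, showed no separation of the groups. Its values were 3057, 2686, 2462, 2899 and 2840.1 CPM in vivo, 2985, 4011, 3909, 2603 and 2442 CPM in manual, and 2185, 2989.7, 2755, 1189 and 3278 CPM in automatic libraries. Automatic 4 lay lowest and the groups overlapped, with a log2 difference of 0.012 ± 0.23 (SE; 95% interval -0.47 to 0.50). PRDX3, of the mitochondrial matrix, had 1 high library: in vivo 2 held 479.6 CPM and the other 14 held 54.4 to 149.8 CPM. The log2 difference of -0.79 ± 0.41 (SE) was -0.24 without the low-detection libraries and -0.032 without in vivo 2. PRDX6, which prefers phospholipid peroxides, was at 14.8 CPM in that same library and between 348 and 1049 CPM in the other 14.

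Thioredoxin itself (TXN), the small protein that hands electrons to peroxiredoxins, had its highest value of each group in a low-detection library. In vivo libraries measured 672, 8034, 368, 988 and 1059 CPM, manual libraries 541, 5502, 526, 1755 and 1975 CPM, and automatic libraries 436, 3491, 463, 2925 and 1233 CPM. The 5 low-detection libraries ran from 988 to 8034 CPM with a median of 3491, and the other 10 from 368 to 1975 CPM with a median of 607. The log2 difference in vitro was -0.25 ± 0.70 (SE; 95% interval -1.71 to 1.22), and it turned to 1.28 without in vivo 2 and to 0.40 without all 5 low-detection libraries. The part of detection in these TXN values was not tested. TXN2, the mitochondrial thioredoxin, ran from 164 to 469 CPM, with means of 300.4 ± 86.9 in vivo, 365 ± 33.4 manual and 349 ± 90.2 CPM automatic (SD, n = 5 each).

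TXNRD1, the cytosolic selenoprotein that reduces thioredoxin with NADPH, measured 172, 15.9, 126, 145 and 134 CPM in vivo. It measured 196, 71.6, 146, 69.8 and 57.8 CPM in manual and 260.5, 127, 121, 135 and 152 CPM in automatic libraries. In vivo 2 was lowest and automatic 1 highest, and the groups overlapped, with a log2 difference in vitro of 0.15 ± 0.46 (SE; 95% interval -0.82 to 1.12). The log2 ratio of TXN to TXNRD1 differed by -0.22 between in vitro and in vivo groups (exact permutation p = 0.871). TXNRD2, the mitochondrial reductase, had means of 8.39 ± 7.05 CPM in vivo, 2.76 ± 1.94 manual and 0.936 ± 1.44 automatic (SD, n = 5 each).

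Catalase (CAT), which breaks down hydrogen peroxide in peroxisomes, measured 159, 9.11, 121, 142 and 45.3 CPM in vivo, 146, 113, 154, 46.2 and 61.02 CPM in manual, and 157, 4.13, 69.2, 103 and 109 CPM in automatic libraries. The lowest 2 values were in low-detection libraries, in vivo 2 and automatic 2. The log2 difference in vitro was 0.0071 ± 0.65 (SE; 95% interval -1.35 to 1.36).

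The NADPH branch holds 3 enzymes of the pentose phosphate pathway, which were tested, and the malic enzyme ME1. All 3 tested genes lay slightly lower in vitro, with a median of -0.16 and none at an unadjusted p under 0.05 by edgeR. PGD turned to 0.010 with scaling by library size alone. Against in vivo, all 3 lay lower in manual libraries (median -0.28), but 2 of 3 lay higher in automatic ones (median 0.058). PGD, the second of the pathway's NADPH-producing steps, measured 642, 45.8, 644, 663 and 493 CPM in vivo, 715, 215, 759, 149.8 and 250.1 CPM in manual, and 747, 384, 716, 283 and 626 CPM in automatic libraries. In vivo 2 stood far below its group, and the log2 difference in vitro was -0.052 ± 0.49 (SE; 95% interval -1.08 to 0.97). TALDO1 and TKT, which carry the sugar rearrangements, had means of 492 ± 85.9 and 731 ± 255 CPM in vivo, 404 ± 212 and 565 ± 230.2 manual, and 342 ± 101 and 762 ± 382 automatic (SD, n = 5 each). ME1 was at 0.0296 CPM in vivo, 0.777 manual and 0.894 automatic on average and was not tested.

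In the iron branch 1 of 3 genes lay higher and 2 lower in vitro, with a median of -0.37, and the light chain of ferritin had the smallest p. Ferritin is a shell of heavy chains (FTH1), which oxidise iron, and light chains (FTL), which help to store it as mineral. FTL measured 690.2, 913, 422, 884 and 873 CPM in the in vivo libraries 1 to 5. It measured 296, 322, 536, 279 and 394 CPM in manual and 239, 383, 238, 456 and 408 CPM in automatic libraries. In vivo 3 was the lowest of its group, and 8 of the 10 in vitro libraries lay below it. Group means were 757 ± 206 CPM in vivo, 365 ± 105 manual and 345 ± 101 automatic (SD, n = 5 each). The log2 difference was -1.09 ± 0.27 (SE; 95% interval -1.65 to -0.54), or 2.13-fold lower in vitro, with an unadjusted p of 0.000587 and an adjusted p of 0.275 by edgeR. It was -0.99 without the low-detection libraries. DESeq2 gave an adjusted p of 0.0445 and limma-voom with quality weights one of 0.0323.

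FTH1 measured 3544, 2861, 3457, 5408 and 4327 CPM in vivo, 3077, 2073, 3932, 2730.1 and 3244 CPM in manual, and 2817, 2761, 2802, 3133 and 3810.3 CPM in automatic libraries. The groups overlapped more than for FTL, and the log2 difference in vitro was -0.37 ± 0.21 (SE; 95% interval -0.80 to 0.064; adjusted p = 0.922 by edgeR).

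Because both chains build 1 particle, their log2 ratio was compared within libraries, where depth and scaling nearly cancel. The log2 ratio of FTH1 to FTL was 2.36, 1.65, 3.03, 2.61 and 2.31 in vivo. It was 3.37, 2.69, 2.87, 3.29 and 3.04 in manual and 3.56, 2.85, 3.55, 2.78 and 3.22 in automatic libraries. The lowest ratio of each group was in a low-detection library (in vivo 2, manual 2 and automatic 4). In vivo 4, also a low-detection library, lay above in vivo 1 and in vivo 5. The part of detection in this ratio was not tested. All 10 in vitro libraries lay above 4 of the 5 in vivo libraries, and in vivo 3 lay within the cultured range. The mean was 2.39 ± 0.51 in vivo (SD, n = 5) and 3.12 ± 0.32 in vitro (SD, n = 10). The ratio was higher in vitro by 0.73 on the log2 scale (exact two-sided permutation p = 0.00333, adjusted p = 0.0266 over 8 ratio tests). The smallest p this design can give is 0.000333.

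That call depended on single libraries. The difference was 0.72 without in vivo 1 (adjusted p = 0.0799), 0.54 without in vivo 2 (0.144), 0.71 without in vivo 5 (0.0879), 0.71 without manual 4 (0.0559) and 0.72 without automatic 5 (0.0519), all by exact permutation with adjustment over 8 tests. Without the 5 low-detection libraries it was 0.71 (exact permutation p = 0.0167, adjusted p = 0.133). The smallest p that 7 against 3 libraries can give is 0.00833, so this ratio alone could not have passed after adjustment over 8 tests. Automatic and manual libraries differed by 0.14 in this ratio (exact permutation p = 0.508). Ferritin chains have processed gene copies in mammalian genomes, as do TXN, PRDX1 and GPX1, so their estimated counts are less certain where reads match several copies.

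**Figure D4:**
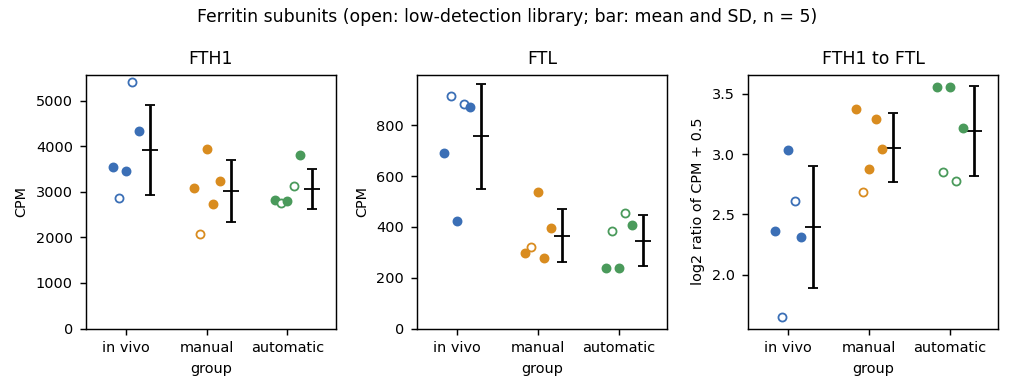
Ferritin chains in each library. FTH1 and FTL are plotted in CPM, and the log2 ratio of FTH1 to FTL is plotted by group, with 1 point per library, open for low-detection libraries, and a bar for the group mean and SD (n = 5 each). The ratio spans 1.65 to 3.03 in vivo, 2.69 to 3.37 in manual and 2.78 to 3.56 in automatic libraries.

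HMOX1, the inducible haem oxygenase that frees iron from haem and is a classic NRF2 target, was scarce and uneven. In vivo libraries 1 to 5 held 59, 0, 324, 0 and 2 counts of it, so HMOX1 passed the filter through the in vitro libraries. It measured 1.34, 0, 6.63, 0 and 0.0733 CPM in vivo, 10.8, 29.8, 36.7, 0 and 11 CPM in manual, and 6.97, 0, 11.8, 0 and 49.4 CPM in automatic libraries. In vitro, 7 of 10 libraries were above the highest in vivo value and the other 3 were at 0, of which automatic 2 and automatic 4 are low-detection libraries. The log2 difference of 3.26 ± 2.02 (SE; 95% interval -0.97 to 7.49; unadjusted p = 0.123 by edgeR) has an interval that spans 0. It was 5.39 without in vivo 3 and 5.91 in a fit that adjusted for gene detection. Other fits gave less, 2.50 without automatic 5 and 2.77 without the low-detection libraries.

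Markers of other cell types were summed beside these genes. Stromal markers (5 of 5 in the table) summed to 0 to 2.5 CPM in vivo, with COL3A1 and POSTN at 0 in all 5 libraries, to 3.001 to 437 CPM in manual and to 5.66 to 168 CPM in automatic libraries. Cumulus and granulosa markers (8 of 9 in the table) summed to 13.01 to 45.3 CPM in vivo, 9.74 to 89.6 in manual and 2.06 to 17.2 in automatic libraries, where PTX3 was at 0 in all 5, so manual libraries spanned the in vivo range. The part of these markers, and of the trophectoderm, epiblast and hypoblast sums given above, in the in vitro differences was not tested.

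Each denudation group was also set against in vivo blastocysts. These comparisons share the in vivo libraries, so their values are given side by side and their likeness is not a result. Automatic libraries had 0 of 31 genes at an adjusted p under 0.05 (background 0.0173%) and 7 of 31 at an unadjusted one (background 5.36%), by edgeR. Manual libraries had 0 of 31 (background 0%) and 6 of 31 (background 3.39%). The choice of members with earlier results known limits these shares too. The log2 difference from in vivo, automatic first and manual second, was -1.23 and -1.16 for GPX1. It was -1.13 and -1.05 for FTL, and 1.38 and 1.09 for SQSTM1. For PRDX2 the values were -0.62 and -0.91, and for PRDX5 -0.93 and -0.77. They were 1.56 and 0.81 for PRDX4, and 1.29 and 1.48 for GSR. PRDX4 was the 1 gene of 31 for which all 5 automatic libraries lay above all 5 in vivo libraries (background 0.916%), with 0 of 31 below (background 1.16%). DESeq2 called PRDX4 alone of the 31 in this comparison (adjusted p = 0.0426, background 0.751%), where edgeR gave an adjusted p of 0.511. Limma-voom with quality weights called FTL (adjusted p = 0.0232) and PRDX5 (adjusted p = 0.0203), with a background of 0.821%.

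**Figure D5:**
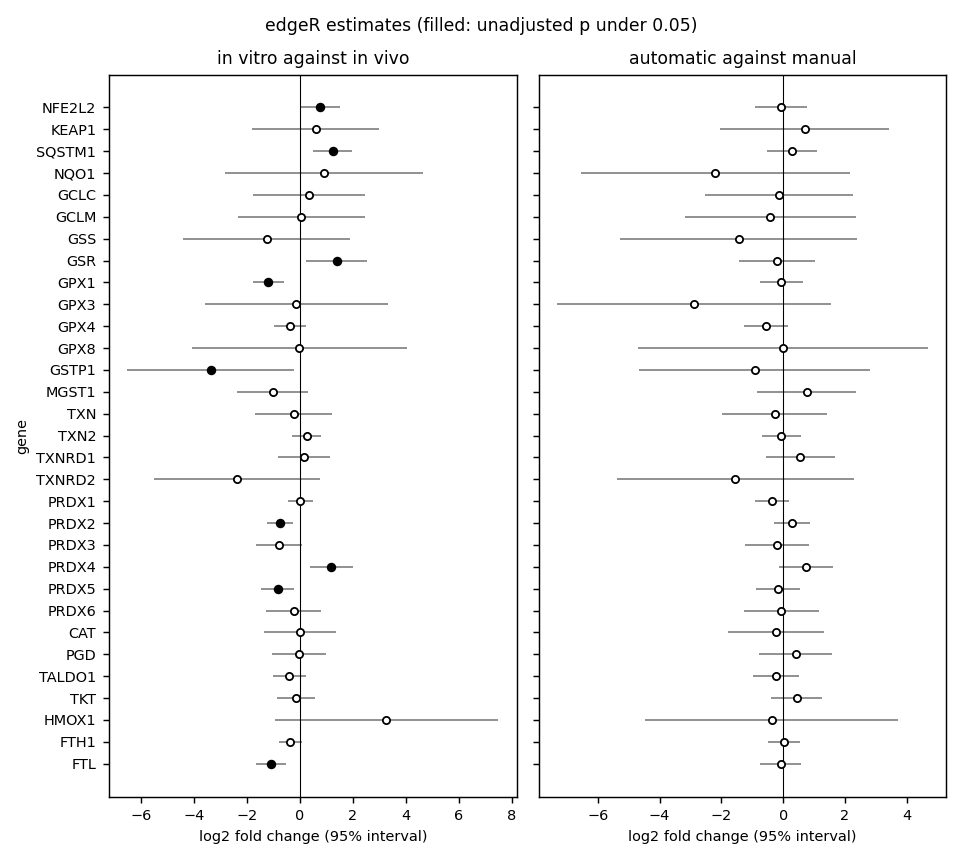
Log2 differences of the 31 tested antioxidant genes with 95% intervals, for in vitro against in vivo and for automatic against manual, ordered by branch. Filled points have an unadjusted p under 0.05 by edgeR. In vitro against in vivo the interval spans 0 for 22 of 31 genes, and automatic against manual it spans 0 for all 31.

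Denudation by machine or by hand gave no antioxidant gene past either threshold, and none of the alternative fits, DESeq2 and limma-voom among them, gave an adjusted p under 0.05 for one. Without the low-detection libraries 2 of 31 (6.45%) had an unadjusted p under 0.05, GPX4 lower and TKT higher in automatic libraries, where the share over all genes was 4.08%. Of the 31 tested genes, 9 lay higher and 22 lower in automatic libraries, with a median log2 difference of -0.13, beside -0.049 over all genes tested. No gene's libraries separated the groups, where 0.138% of all genes were higher and 0.527% lower without overlap. The width of the intervals limits what can be said: 9 of 31 lay wholly within a 2-fold change in either direction and 20 of 31 within a 4-fold change.

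The smallest unadjusted p-values between the denudation groups were 0.0915 for PRDX4 and 0.111 for GPX4 by edgeR. PRDX4 averaged 221 ± 125 CPM in automatic and 131 ± 49.2 CPM in manual libraries (SD, n = 5 each), a log2 difference of 0.75 ± 0.42 (SE; 95% interval -0.13 to 1.62). It was -0.018 without the low-detection libraries, of which automatic 4 held 433 CPM. GPX4 averaged 296 ± 121 and 438 ± 64.4 CPM, a log2 difference of -0.56 ± 0.34 (SE; 95% interval -1.27 to 0.14). Without the low-detection libraries it was -0.95 (95% interval -1.62 to -0.28; unadjusted p = 0.0093, adjusted p = 1.0 by edgeR). TXNRD1 differed by 0.56 ± 0.53 on the log2 scale (SE), with 0.32 without automatic 1 and 0.90 without manual 1. PRDX1 differed by -0.36 ± 0.27 (SE), with -0.17 without automatic 4 and -0.11 without the low-detection libraries. For genes named above between in vitro and in vivo blastocysts, the log2 difference between automatic and manual libraries was -0.064 ± 0.33 for GPX1, -0.083 ± 0.32 for FTL and 0.026 ± 0.24 for FTH1 (SE). It was 0.29 ± 0.38 for SQSTM1, 0.29 ± 0.28 for PRDX2 and -0.067 ± 0.40 for NFE2L2 (SE). The sign for GPX1, FTL, FTH1 and NFE2L2 changed under some of the alternatives run. For GPX1 the 95% interval ran from -0.76 to 0.64, and for FTL from -0.74 to 0.58.

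A second list of 70 further genes of the same pathways (cystine import, glutathione breakdown, other transferases, iron uptake, methionine repair) had 65 members in the table, of which 61 were tested. It too was chosen with earlier results of these data known. Between in vitro and in vivo libraries 6 of 61 (9.84%) had an unadjusted p under 0.05, where the share over all genes was 6.13%. Of these, 4 lay higher (background 2.46%) and 2 lower (background 3.67%), and 1 passed the adjusted threshold (background 0.0173%). CHAC1, SLC7A11 and GSTM3, of the 4 higher ones, had almost no or no in vivo counts and passed the filter through the in vitro libraries, so their direction follows from the filter. The gene that passed was CHAC1, which degrades glutathione and is a target of the ATF4 stress response. It was found with 5 counts in 1 in vivo library and none in the other 4, and averaged 17.9 ± 12.5 CPM in manual and 24.3 ± 9.13 CPM in automatic libraries (SD, n = 5 each), with an adjusted p of 0.0415 by edgeR. Its adjusted p exceeded 0.05 in 13 of the 15 fits that left out 1 library, up to 0.265.

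SLC7A11, the cystine importer that supplies cysteine for glutathione, and GSTM3, a glutathione transferase, were at 0 in every in vivo library. Against a floor of 3 counts over that group, the in vitro means lay 272-fold and 178-fold higher, with counts in 5 and 8 of the 10 in vitro libraries. That floor allows for sampling noise alone, and replicates differed by more, so these folds are not lower bounds. TFRC, the transferrin receptor that imports iron, averaged 93.02 ± 87.8 CPM in vivo, 309 ± 92.7 manual and 199.8 ± 146 automatic (SD, n = 5 each), a log2 difference of 1.42 ± 0.59 (SE; adjusted p = 0.743 by edgeR). Limma-voom with quality weights gave 2.19 for TFRC (adjusted p = 0.0383). HMOX2, the constitutive haem oxygenase, averaged 84.8 ± 59.9, 31.03 ± 13.4 and 15.2 ± 12.4 CPM in the same order, a log2 difference of -1.96 ± 0.74 (SE; adjusted p = 0.689 by edgeR), and -0.70 without the low-detection libraries. MGST3 lay lower by -1.14 ± 0.54 on the log2 scale (SE; adjusted p = 0.805 by edgeR), and -0.70 without in vivo 2.

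Between automatic and manual libraries 1 of 61 further genes (1.64%) had an unadjusted p under 0.05, a share near the 1.48% of all genes. It was SLC11A2, an iron transporter of the membrane and endosome, with 204 ± 65.3 CPM in vivo, 199 ± 129.6 manual and 85.5 ± 48.9 automatic (SD, n = 5 each). Its log2 difference was -1.22 ± 0.50 (SE; unadjusted p = 0.0253, adjusted p = 0.9999 by edgeR). It was -0.73 without manual 3 and -0.67 by limma-voom with quality weights.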

How the data were processed

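Stranded poly(A) RNA-seq libraries (15, from day-7 blastocysts) were read from the table that the authors deposited, whose values are estimated counts per gene as whole numbers. Per the submitters' processing notes the tools were FastQC, fastp and kallisto. The genome build, the annotation and whether molecular identifiers were used: not given in the sources used here. The 1 line without a gene name was left out. Genes were kept by filterByExpr (11578), scaled by TMM and tested in edgeR 4.0.16 (R 4.3.3) by the robust quasi-likelihood test over all 15 libraries, with Benjamini-Hochberg adjustment over all genes tested and a threshold of 0.05. Groups follow the sample labels. No replicate pair agreed within sampling noise (smallest chi-square per degree of freedom 183). Ratios of 2 members used CPM plus 0.5 on the log2 scale and exact two-sided permutation tests, adjusted over 8 tests. The planned SOD1 to SOD2 ratio was not run, as both genes are not analysed here. Alternatives used DESeq2 1.42.0, limma 3.58.1, other scalings, filters and covariates, and fits without single or low-detection libraries (under 9000 genes with 10 counts). The script was tested on simulated data. All 32 members matched RefSeq symbols.

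The members and lists were chosen with earlier results of these data known. The core genes fixed by name were 13, of which SOD1 and SOD2 were not analysed here. Values of each library are given for the rest. They are also given for each member with an unadjusted edgeR p under 0.05 in automatic against manual or in vitro against in vivo. Other pathway genes are named only on that criterion. HMOX1, MGST1, PRDX3 and PRDX6 library values were added after they were seen.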

Additional observations from a re-analysis of the deposited data

Results flagged for a closer look

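In 6 of the 54 groups of 5 libraries examined for outlying members, the gap between an extreme library and its nearest neighbour exceeded Dixon's limit of 0.71 of the range. Chance gives about 1 in 20 for normally distributed values, which was not tested for these CPM. The 54 groups cover 18 members, and HMOX1, MGST1, PRDX3 and PRDX6 were not among them. TXN was at 8034 CPM in in vivo 2, with the other in vivo libraries at 368 to 1059 CPM. PGD was at 45.8 CPM in the same library, against 493 to 663 CPM. NFE2L2 was at 165 CPM in in vivo 1, against 54.7 to 85.1 CPM. SQSTM1 was at 251 CPM in automatic 4, against 473 to 554 CPM. TXNRD1 was at 260.5 CPM in automatic 1, against 121 to 152 CPM. GSTP1 was at 4.31 CPM in manual 4, against 0 to 0.584 CPM. In vivo 2 and automatic 4 are low-detection libraries, and their part in these values was not tested.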

How the results depend on the processing

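GPX1, FTL, PRDX2, PRDX5, SQSTM1, PRDX4, GSR, NFE2L2 and GSTP1 kept their direction between in vitro and in vivo in every alternative run. Counts of all genes called depended on the tool. In vitro against in vivo, automatic against in vivo and manual against in vivo, in that order, they were 87, 87 and 44 with DESeq2, 15, 9 and 1 with limma-voom, 107, 95 and 2 with quality weights, and 7, 9 and 3 without low-detection libraries. With library size alone the first 2 were 0 and 0. The first was 7 with detected genes as a covariate, and the second was 1 with no filter. Automatic against manual it was 9 with DESeq2, 1 with quality weights and 1 without low-detection libraries. Leaving out 1 library gave 0 to 7 calls in vitro against in vivo and 0 to 4 in automatic against in vivo. Library size alone moved the median of all genes in vitro to 0.10.

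Replicate numbers were not used to pair the samples in the main fits, and no label says whether they do. Deviations from the group means were correlated between same-numbered libraries of different groups, and 8 of 15 correlations were over 0.1. That limit does not exclude pairing. The correlations ran from 0.00137 to 0.380, 15 of 15 above 0, and in 12 of 30 comparisons a library correlated best with its own number. The low-detection libraries share numbers too: in vivo 2, manual 2 and automatic 2, and in vivo 4 and automatic 4. Pairing and shared detection were not told apart. With the replicate block the calls were 8, 7 and 1 in the order above, the FTH1 to FTL difference was 0.73 (exact permutation adjusted p = 0.0658), and the log2 differences in vitro turned to 0.12 for TXN, -0.038 for PRDX1 and 0.0018 for PGD.

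These log2 differences, none of them past the threshold, changed sign. In vitro against in vivo, TXN became 0.26 with library size alone, 0.43 with limma-voom, 0.29 with quality weights, 0.26 with the covariate and 0.40 without low-detection libraries. CAT became -0.00010 with RLE factors, -7.4e-05 with DESeq2, -0.21 with limma-voom, -0.13 with quality weights and -0.027 without low-detection libraries. KEAP1 became -0.15 without low-detection libraries, GCLC -0.25 with limma-voom, TXNRD1 -0.013 and PRDX1 -0.025 with quality weights, and PGD 0.010 with library size alone. Automatic against manual, GPX1 became 0.022 with library size alone, 0.070 with quality weights and 0.17 without low-detection libraries, FTH1 -0.043 with quality weights and -0.029 without low-detection libraries, and PRDX4 -0.018 without low-detection libraries.

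Over the fits that left out 1 library, in vitro against in vivo ran from -0.62 to 1.28 for TXN, -0.12 to 0.32 for TXNRD1, -0.047 to 0.099 for PRDX1, -0.28 to 0.27 for CAT and -0.34 to 0.067 for PGD. Automatic against manual it ran from -0.24 to 0.14 for NFE2L2, -0.19 to 0.041 for GPX1, -0.19 to 0.11 for FTL and -0.095 to 0.15 for FTH1. Ratios ran from 0.54 to 0.89 for FTH1 to FTL, -0.34 to 0.61 for GCLC to GCLM, -0.74 to 1.10 for TXN to TXNRD1 and -1.001 to 0.039 for NFE2L2 to KEAP1 in vitro against in vivo, and from -1.89 to 0.045 for NFE2L2 to KEAP1 in automatic against manual. Without low-detection libraries the 4 ratios in vitro against in vivo were 0.71, -0.47, 0.51 and 0.045. The cause was not tested. CHAC1 missed the threshold with library size alone (9.46, adjusted p = 0.0683) and the block (10.1, adjusted p = 0.0760).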
